A study of Vitis vinifera with 6 samples.

Results

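The genes described here are those whose transcripts were at least 2-fold more abundant in ripe berries of the seedless mutant than in ripe berries of the seeded wild-type, while flowers and young berries of both clones were within 2-fold of each other. The rule used R, the ratio of mutant to wild-type RPM (unique reads scaled to 1000000 per library) with 0.5 RPM added to both values. Members had a mean of at least 1 RPM over the 2 libraries of stage E-L 38, R of at least 2 at E-L 38, and R between 0.5 and 2 at E-L 27 and at E-L 15. This selected 216 of 28059 gene models. Since the measured values chose the members, their values at E-L 38 are given as a description and carry no test. None of the 216 identifiers is paired with a gene name or function in the sources used here, so that members are given by identifier, and the chromosome is read from the digits after VIT_, where 00 stands for sequence not placed on a chromosome (Un).

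The wild-type was Sangiovese, a seeded wine grape, and the mutant its seedless somatic variant, which shares its microsatellite profile. Each clone was sampled at E-L 15, when single flowers stand in compact groups before fertilization, at E-L 27, when young berries enlarge, and at E-L 38, when berries are ripe for harvest. Every clone and stage was measured by mRNA-Seq in 1 library, made from a single biological replicate with the RNA of 3 extractions pooled. As a model of seedlessness the material is therefore 1 mutant clone, and no difference between the clones at a stage has a replicate check. The study collected both clones on the same dates and describes their berry development and ripening as similar. It compared stages within each clone to limit differences from asynchronous sampling. No measure of ripeness within E-L 38 was available here. The clone and its degree of ripeness therefore cannot be told apart at that stage.

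A grape berry enlarges after fruit set and later ripens, when it softens, takes up sugar, loses acid and, in red cultivars, colours. The seeds mature within the berry and fill with storage proteins and oil, and their coat lignifies. In seedless grapes the seeds are missing or remain as traces, so that RNA of a whole ripe berry holds little or no seed RNA. In RNA from whole berries, fewer cells of a type and less RNA per cell cannot be told apart, and an RPM value rises when RNA of other genes is missing.

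Between 70331451 and 98800321 uniquely mapped reads per library were counted on genes, and 1 read was 0.0101 to 0.0142 RPM. The mutant E-L 38 library stood apart, with 3970 gene models at 0 reads against 2211 to 3237 in the other 5, and with 8.78% of its reads on its 10 most abundant genes against 2.82% to 6.80%. In the study's own mapping summary it also had the largest share of unmapped and intronic reads. The 9 seed genes named by the study, which were chosen there on these libraries, summed to 977 RPM in wild-type E-L 38 and to 2.17 RPM in mutant E-L 38, where 6 of the 9 had 3 reads or fewer. Their sums were 14.1 and 6.84 RPM in wild-type E-L 15 and E-L 27, and 19.3 and 3.34 RPM in the mutant. None of these 9 genes is a member. A class IV chitinase gene (VIT_05s0094g00330), used as a marker of the ripe berry, had 970 and 712 RPM in ripe berries of the wild-type and the mutant. At E-L 15 it had 0.918 and 0.875 RPM, and at E-L 27 16.2 and 4.19 RPM. The study lists it among genes that changed between stages in the wild-type only. A beta-expansin gene that the study lists with far higher values in ripe berries had more RPM in the mutant there. The chitinase alone thus does not rank the clones by ripeness. The part of these differences between the libraries in the results below was not tested. The 68 genes with R, defined above, of at most 0.1 at E-L 38 took 0.298% of the wild-type E-L 38 reads and 0.00592% of the mutant E-L 38 reads. They are the extreme of 1081 genes with R of at most 0.5 there, so that these shares do not give all the RNA that is lower in the mutant.

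Of 16946 genes whose mean over the ripe libraries was 1 RPM or more, called ripe-expressed genes below, 249 (1.47%) had R of at least 2 and 1081 (6.38%) had R of at most 0.5. Among the 249, the E-L 27 limits left out 20 and the E-L 15 limits 14, of which 1 failed both. The same rule turned round, for genes lower in the mutant at E-L 38 alone, held for 987 genes. Applied to the other stages, it held for 50 genes raised in the mutant at E-L 27 alone and for 25 raised at E-L 15 alone. The genes nearest to the threshold were VIT_02s0012g03140 with R of 2.002 inside it and VIT_14s0068g00400 with R of 1.999 outside it, and these had 2.004 and 1.599 RPM in ripe wild-type berries against 4.51 and 3.70 RPM in ripe mutant berries. The next outside, VIT_00s0125g00060 and VIT_16s0050g00850, had R of 1.995 and 1.994 at 43.4 and 48.6 RPM in wild-type E-L 38, so that the border ran through genes of low and of moderate abundance.

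**Figure D1:**
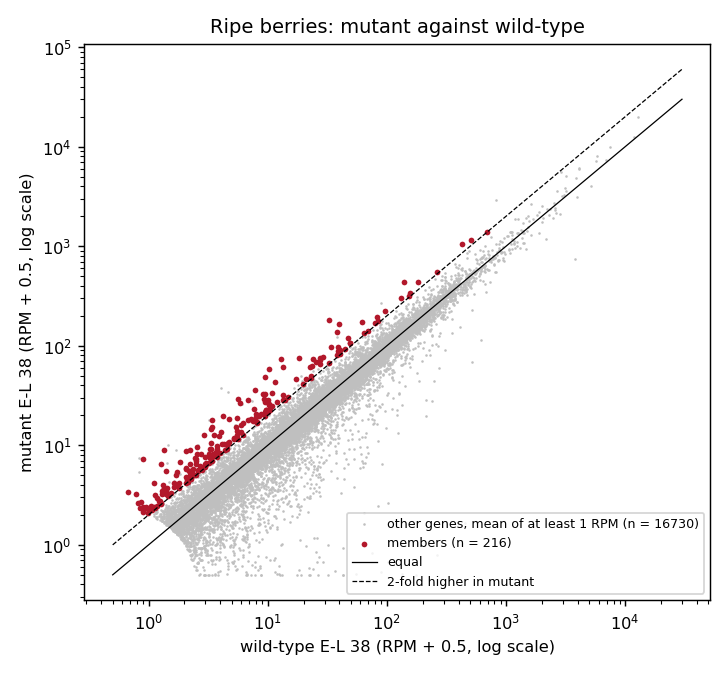
RPM in mutant E-L 38 (vertical axis) against wild-type E-L 38 (horizontal axis), each with 0.5 RPM added and on a log scale, for the 16946 ripe-expressed genes; each point is 1 gene, red for the 216 members, grey for the others, and lines mark equality and a 2-fold excess in the mutant. The members lie on or above the upper line over the range from 1.58 to 1390 RPM in the mutant, and the grey points above it are genes that differed between the clones at an earlier stage.

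At E-L 38 the median R of the members was 2.38, with quartiles at 2.16 and 2.85 and the highest value at 8.21. Most lay near the threshold: 120 members had R below 2.5, 49 had R of at least 3, 24 at least 4 and 10 at least 5. The 95% exact conditional binomial interval of the RPM ratio, from the 2 counts and covering counting error only, lay above 1 for all 216 members and had its lower bound at 2 or more for 190. The members were chosen on these same 2 counts, so that intervals above 1 follow from the rule and are no support for a difference. The RPM ratio also lacks the added 0.5 RPM and is larger than R. The spread between berries of a clone is not part of these intervals.

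In flowers and young berries the members were centred on equality, with a median R of 0.981 at E-L 15 and 1.003 at E-L 27, as the rule would favour. Within the limits set by the rule, R exceeded 1.5 for 12 members (5.56%) at E-L 27 and for 11 (5.09%) at E-L 15. Over the 16624 genes within the same limits at both stages these shares were 0.896% and 1.32%. R was below 1 divided by 1.5 for 16 members (7.41%) at E-L 27 and for 16 at E-L 15, against 2.33% and 0.830% of those genes.

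**Figure D2:**
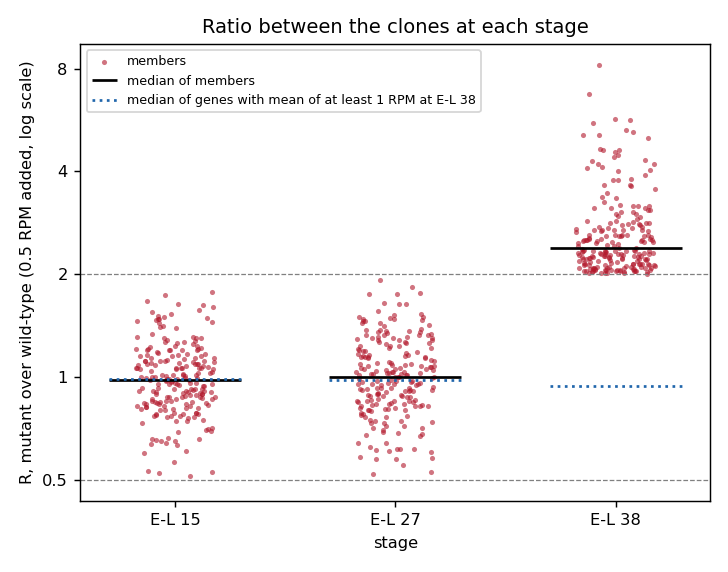
R, mutant over wild-type with 0.5 RPM added (vertical axis, log scale), of the 216 members at the 3 stages; points are members, black bars their median, blue dotted bars the median of the 16946 ripe-expressed genes, and dashed lines the limits 0.5 and 2 of the rule. The members' medians are 0.981, 1.003 and 2.38 from E-L 15 to E-L 38, and the spread at E-L 38 reaches 8.21.

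The members together took 21890, 13970 and 4727 RPM in flowers, young berries and ripe berries of the wild-type, against 21520, 17320 and 11590 RPM in the mutant. As sums, the 2 clones thus held nearly the same amount in flowers and both held less in ripe berries, the wild-type more so. Sums follow the most abundant members and not most members. In the mutant, 106 members were at least 2-fold higher in ripe berries than in flowers and 44 were lower. In the wild-type 41 were higher and 89 lower. The median member had 6.68, 9.69 and 3.60 RPM in the wild-type and 6.85, 9.80 and 10.2 RPM in the mutant in the same order. In mutant E-L 38, 106 members were below 10 RPM, 88 between 10 and 100 RPM and 22 at 100 RPM or more. Each of the 216 had more than 3 reads in both E-L 38 libraries, and the lowest value there was 0.172 RPM in the wild-type.

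The largest ratio was that of VIT_02s0154g00300 (chromosome 2), which had 2.71, 13.1 and 0.395 RPM in the wild-type and 3.02, 11.1 and 6.84 RPM in the mutant, in the order flowers, young berries, ripe berries. It was thus at like levels in both clones up to the young berry, and 39 reads remained in ripe wild-type berries against 485 in the mutant. Its R was 8.21, and the ratio of RPM without the addition was 17.3, with a 95% interval of 12.5 to 24.7. VIT_05s0020g04390 (chromosome 5) was likewise lowest in ripe wild-type berries. It had 6.10, 15.2 and 0.840 RPM in the wild-type and 10.5, 14.5 and 8.55 RPM in the mutant, and R of 6.75 at E-L 38. In flowers it was already higher in the mutant, with R of 1.67. VIT_10s0003g01040 (chromosome 10), with 0.810, 1.37 and 0.172 RPM in the wild-type and 0.682, 1.96 and 2.88 RPM in the mutant, showed how the added 0.5 RPM shrinks the ratio of a low gene, since R was 5.03 and the ratio without it 16.7 (10.2 to 29.3).

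Among the more abundant of the members with R above 5, VIT_18s0001g06150 (chromosome 18) had 121, 221 and 32.4 RPM in the wild-type and 99.0, 322 and 182 RPM in the mutant. Both clones had more of it in young berries than in flowers, and the ripe wild-type berry was the lowest of the 6 libraries. A neighbour listed a few identifiers on, VIT_18s0001g06170, had R of 5.61 at E-L 38 but was no member, because R was 2.15 at E-L 27. VIT_05s0102g00450 (chromosome 5) followed the same order with 46.1, 87.7 and 8.93 RPM in the wild-type and 38.6, 81.6 and 47.5 RPM in the mutant, and VIT_09s0002g08330 (chromosome 9) had 31.9, 19.8 and 5.16 RPM against 24.8, 23.4 and 28.9 RPM.

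VIT_04s0023g01290 (chromosome 4) went the other way along development, with 3.34, 6.99 and 12.5 RPM in the wild-type and 1.83, 6.33 and 72.8 RPM in the mutant. Its highest value was in ripe berries of both clones, R was 5.64, and mutant E-L 38 was 10.7-fold above mutant E-L 27 against 1.74-fold in the wild-type. VIT_01s0011g04660 (chromosome 1) had 0.421, 0.443 and 0.769 RPM in the wild-type and 0.784, 0.697 and 5.97 RPM in the mutant, so that 1 of the 6 libraries stood above the rest.

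The most abundant members at the ripe stage had ratios close to the threshold. VIT_00s1995g00010 (Un) had 132, 120 and 688 RPM in the wild-type and 168, 163 and 1390 RPM in the mutant in the same order of stages, with R of 2.02. VIT_12s0059g01060 (chromosome 12) had 195, 496 and 504 RPM against 218, 678 and 1144 RPM, with R of 2.27, and was thus flat between young and ripe wild-type berries. VIT_06s0004g01510 (chromosome 6) had 2047, 2394 and 428 RPM against 2172, 2778 and 1058 RPM, so that it was lowest at the ripe stage in both clones, with R of 2.47. Of the 10 members with the most RPM in mutant E-L 38, VIT_00s0323g00070 had the largest R, 3.17, and the other 9 lay between 2.02 and 2.47. Without these 10, the members summed to 5384 RPM in mutant E-L 38 and to 1985 RPM in wild-type E-L 38.

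From young to ripe berries the members took 6 different courses, defined by a change of at least 2-fold between E-L 27 and E-L 38 within each clone, with 0.5 RPM added. These are all the courses that the rule allows, since it makes the change in the mutant exceed that in the wild-type. The excluded courses, which the backgrounds below include, held 850 genes (wild-type within 2-fold, mutant lower), 16 (higher, lower) and 604 (higher, within 2-fold). These counts rest on the E-L 38 libraries that the rule used, and they are descriptions of single libraries. In the wild-type, 30 members were higher at E-L 38 (13.9%, background 16.6%), 88 were lower (40.7%, background 23.5%) and 98 lay within 2-fold (45.4%, background 59.9%), where the background is the share of the ripe-expressed genes that did so. In the mutant, 106 were higher (49.1%, background 15.8%), 46 were lower (21.3%, background 26.5%) and 64 lay within 2-fold (29.6%, background 57.7%). In the wild-type more members were thus lower than higher in ripe berries, and in the mutant the reverse held. For 124 members (57.4%, background 16.3%) mutant E-L 38 was the highest of the 6 libraries, and for 113 (52.3%, background 17.3%) wild-type E-L 38 was the lowest. The rule raises both shares, since with R of at least 2 wild-type E-L 38 cannot be the highest library, nor mutant E-L 38 the lowest. For 71 members (32.9%, background 39.3%), mutant E-L 38 lay between wild-type E-L 27 and wild-type E-L 38.

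**Figure D3:**
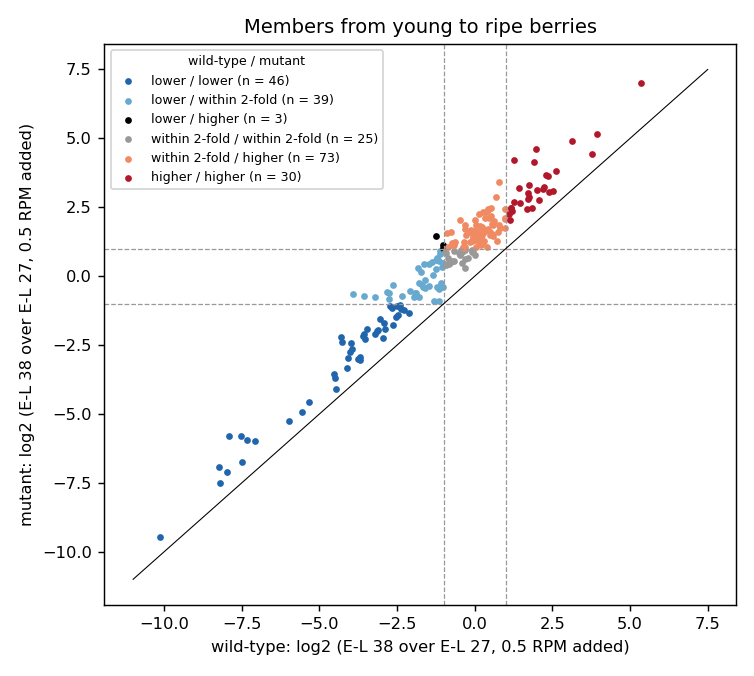
Change from E-L 27 to E-L 38 on a log2 scale, with 0.5 RPM added, in the mutant (vertical axis) against the wild-type (horizontal axis) for the 216 members; each point is 1 member, coloured by pattern, dashed lines mark 2-fold changes and the solid line equal change. All points lie above the solid line, as the rule requires with R of at least 2 at E-L 38 and below 2 at E-L 27. The largest group, 73 members, is within 2-fold in the wild-type and higher in the mutant.

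The largest group, 73 members (33.8%, background 2.81%), was within 2-fold between young and ripe berries of the wild-type and higher in ripe berries of the mutant. The wild-type medians of this group were 3.31, 2.75 and 3.66 RPM from E-L 15 to E-L 38 and the mutant medians 2.84, 2.32 and 9.76 RPM, and the median change in the mutant was 3.03-fold. VIT_09s0002g02440 (chromosome 9) was the most abundant, with 23.9, 109 and 155 RPM in the wild-type and 26.3, 122 and 340 RPM in the mutant. VIT_13s0067g00260 (chromosome 13) was similar, with 37.0, 117 and 153 RPM against 39.1, 153 and 318 RPM. VIT_06s0004g04440 (chromosome 6) had instead a dip in the mutant, with 220, 162 and 130 RPM in the wild-type and 236, 93.4 and 304 RPM in the mutant.

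In 30 members (13.9%, background 12.9%) the ripe berry was at least 2-fold above the young berry in both clones, with a median change of 3.69-fold in the wild-type against 8.63-fold in the mutant. All 30 had their highest value in mutant E-L 38. VIT_00s0323g00070 (Un) was the extreme, with 1.49, 2.87 and 139 RPM in the wild-type and 1.52, 2.93 and 440 RPM in the mutant, which is a change of 41.3-fold and 129-fold. VIT_04s0008g06000 (chromosome 4) had 4.12, 19.0 and 265 RPM against 3.50, 24.9 and 552 RPM. VIT_18s0122g00370 and VIT_18s0122g00390 (chromosome 18), which lie close together, had 0 reads in both E-L 15 libraries, which allows up to 3, and 1.83 and 0.886 RPM in wild-type E-L 27 against 0.839 and 0.299 RPM in mutant E-L 27. At E-L 38 they had 8.69 and 2.82 RPM in the wild-type and 32.1 and 14.2 RPM in the mutant, so that the order of the clones was opposite in young and in ripe berries.

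In 46 members (21.3%, background 21.4%) the ripe berry was lower than the young berry in both clones, with a median of 13.4-fold in the wild-type against 5.26-fold in the mutant. This share was close to that of the ripe-expressed genes, and of the 6 groups this one had the highest medians at the early stages, 47.3 and 41.0 RPM in flowers and young berries of the wild-type. VIT_17s0000g03690 (chromosome 17) had 4639, 1427 and 64.3 RPM in the wild-type and 4623, 2328 and 135 RPM in the mutant. VIT_10s0003g02890 (chromosome 10) had 2006, 1317 and 0.668 RPM against 1851, 1750 and 1.95 RPM. The values of this gene at E-L 38 rest on 66 reads in the wild-type against 138 in the mutant, far below its earlier levels in both.

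In another 39 members (18.1%, background 2.09%) the ripe berry was lower than the young berry in the wild-type, by a median of 3.06-fold, and within 2-fold of it in the mutant. The wild-type medians were 15.2, 18.1 and 4.22 RPM, and the mutant medians 12.6, 14.5 and 16.9 RPM. Besides VIT_18s0001g06150, the most abundant of them were VIT_08s0007g00130 (chromosome 8), with 467, 198 and 61.0 RPM in the wild-type and 458, 215 and 173 RPM in the mutant, and VIT_18s0072g00550 (chromosome 18), with 139, 108 and 48.1 RPM against 129, 199 and 105 RPM.

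A further 25 members (11.6%, background 52.1%) were within 2-fold between young and ripe berries in both clones, and smaller shifts made up their difference at E-L 38. The median change was 1.72-fold upwards in the mutant and 1.39-fold downwards in the wild-type. Among them, VIT_03s0038g03430 (chromosome 3) had 112, 102 and 82.6 RPM in the wild-type and 131, 124 and 193 RPM in the mutant. Only 3 members (1.39%, background 0.0413%) were lower in ripe than in young wild-type berries and higher in ripe than in young mutant berries by 2-fold or more, and this count fell to 0 with each of 3 other scalings of the libraries. They were VIT_13s0101g00210, VIT_16s0013g00330 and VIT_14s0066g01060.

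**Figure D4:**
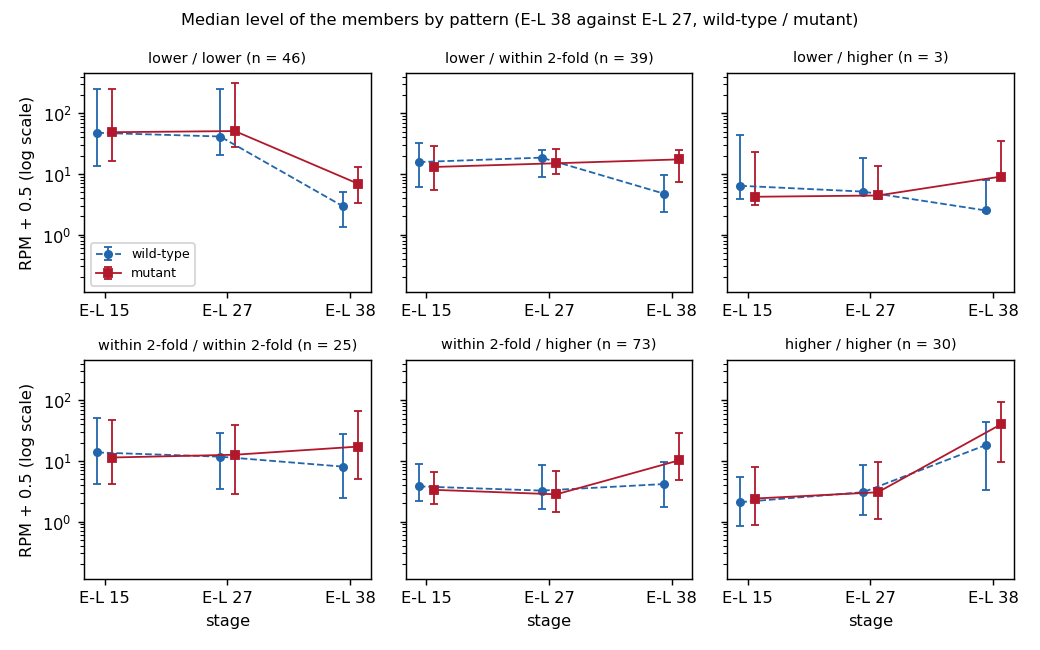
Median RPM of the members, with 0.5 RPM added (vertical axes, log scale), at the 3 stages in the wild-type (blue circles, dashed) and the mutant (red squares, solid), in 1 panel for each of the 6 patterns; bars span the quartiles over members and are not errors between replicates. The clones nearly coincide at E-L 15 and E-L 27 in the 5 larger groups and separate at E-L 38, both of which the rule favours. The direction from E-L 27 to E-L 38 defines the pattern.

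The change from flowers to young berries was tested, with the 2 clones standing as the 2 libraries of a stage. Changes to E-L 38 were not tested for the members, because the E-L 38 libraries chose them. The rule had used these libraries to keep the clones within 2-fold of each other, a limit that 16624 of 16946 genes also met. It thereby also limits how far the stage change of a member can differ between the clones, which is the spread this test uses. The shares of members called are therefore given as a description. With edgeR's quasi-likelihood test with terms for stage and clone, 215 members were tested, and 73 rose (34.0%) and 44 fell (20.5%) from E-L 15 to E-L 27 at an adjusted p below 0.05. Over all 23092 genes tested, 4807 rose (20.8%) and 4913 fell (21.3%), and of the 16811 ripe-expressed genes tested 3686 rose (21.9%) and 3364 fell. The test has 1 residual degree of freedom. When the 2 libraries of E-L 38 were added to the fit, 18 members rose (8.33%) and 9 fell (4.17%), against 2529 (10.7%) and 2689 (11.4%) of 23570 genes, so that the share of members called went from above that of all genes to below it. In that fit the difference between the clones at E-L 38, which the rule selects, counts as spread.

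In the strongest falls, VIT_18s0001g09350 (chromosome 18) had 1052 RPM in wild-type and 674 RPM in mutant flowers and 3.15 and 2.59 RPM in young berries (log2 change -8.21, edgeR adjusted p = 5.7e-05). At E-L 38 it had 0.638 and 1.85 RPM, so that its place among the members rests on 63 and 131 reads. VIT_16s0022g00510 (chromosome 16) fell from 142 and 124 RPM to 20.8 and 21.2 RPM (log2 change -2.66, edgeR adjusted p = 0.000213), and VIT_03s0038g01830 (chromosome 3) from 949 and 1076 RPM to 177 and 243 RPM. Among those that rose, VIT_17s0000g09770 (chromosome 17) had 0.951 and 1.72 RPM in flowers and 32.1 and 56.6 RPM in young berries (log2 change 5.06, edgeR adjusted p = 8.7e-05), then 2.02 and 6.43 RPM at E-L 38. VIT_12s0134g00030 (chromosome 12) rose from 0.475 and 0.693 RPM to 9.54 and 9.09 RPM (log2 change 4.01, edgeR adjusted p = 0.000679).

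Some members lie next to each other. Runs of at least 3 members within 10 consecutive gene models of a scaffold numbered 6 and held 26 members (12%), and 66 members (30.6%) had another member within 10 gene models. Of the 16730 other ripe-expressed genes, 1852 (11.1%) had a member within 10 gene models. Whether the genes of a run are near-identical copies was not examined, and among such copies the split of uniquely mapped reads would be uncertain.

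On scaffold VIT_11s0052 (chromosome 11), 6 of the 13 gene models from VIT_11s0052g01180 to VIT_11s0052g01300 were members, with R of 3.12 to 5.70 at E-L 38. VIT_11s0052g01260 led with 21.0, 22.5 and 9.82 RPM in the wild-type and 16.3, 39.7 and 58.4 RPM in the mutant. VIT_11s0052g01190 had 4.66, 8.17 and 7.33 RPM against 3.54, 10.99 and 35.6 RPM, VIT_11s0052g01180 2.79, 2.88 and 2.03 RPM against 2.07, 4.76 and 9.09 RPM, and VIT_11s0052g01270 6.55, 17.6 and 1.55 RPM against 4.47, 34.3 and 8.31 RPM. In these 4 genes and in VIT_11s0052g01300 the mutant was already above the wild-type at E-L 27, with R of 1.33 to 1.92, and below it at E-L 15, with R of 0.650 to 0.785. VIT_11s0052g01200, between them, exceeded the limit at E-L 27 with R of 2.62 and was left out, with R of 2.72 at E-L 38. VIT_11s0052g01230, in the same stretch, went the other way, with 129 reads in ripe wild-type berries against 2 in ripe mutant berries, and R of 0.292. VIT_11s0052g01280 differed from its neighbours, with R of 0.625 at E-L 27 and 3.12 at E-L 38.

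On VIT_00s0246 (Un), 6 of 11 consecutive gene models were members with R of 2.03 to 2.60, and the other 5 had R of 1.37 to 1.95, so that the whole stretch was higher in ripe mutant berries. Levels there were low, from 2.83 RPM (VIT_00s0246g00190) to 9.76 RPM (VIT_00s0246g00170) in mutant E-L 38 for the members. On VIT_08s0007 (chromosome 8), 4 of 5 gene models were members. Of these, VIT_08s0007g08000, VIT_08s0007g08010 and VIT_08s0007g08020 had 23.3 to 26.1 RPM in young wild-type berries, 3.04 to 7.31 RPM in ripe ones and 12.3 to 16.9 RPM in ripe mutant berries. The last one, VIT_08s0007g08040, had 3.09, 4.38 and 22.2 RPM in the wild-type and 2.99, 6.04 and 60.6 RPM in the mutant, so that neighbours with opposite courses during ripening were both raised in the mutant.

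On VIT_16s0013 (chromosome 16), VIT_16s0013g00390, VIT_16s0013g00440 and VIT_16s0013g00480 had 28.4, 22.7 and 44.4 RPM in wild-type E-L 38 against 77.4, 46.8 and 92.9 RPM in mutant E-L 38. They were also higher in the mutant in flowers, with R of 1.44 to 1.49, and in young berries, with R of 1.22 to 1.29. VIT_16s0013g00450, which lies among them, had 23.6 and 55.0 RPM at E-L 38 and R of 2.03 at E-L 15, which left it out. The fourth member, VIT_16s0013g00330, had 5.90, 4.04 and 1.74 RPM in the wild-type and 3.72, 3.92 and 8.56 RPM in the mutant, and was thus unlike the other members of the run. The remaining ripe-expressed genes of the run, VIT_16s0013g00350 and VIT_16s0013g00380, had R of 1.11 and 0.840 at E-L 38. On VIT_07s0005 (chromosome 7), the adjacent VIT_07s0005g01970 and VIT_07s0005g01980 had 0.532 and 0.521 RPM in young wild-type berries, 2.94 and 2.84 RPM in ripe ones and 7.72 and 6.88 RPM in mutant E-L 38, while the third member of that run, VIT_07s0005g02060, was highest in flowers at 24.9 and 26.3 RPM. The 4 other ripe-expressed genes between them, VIT_07s0005g01990 to VIT_07s0005g02020, had R of 0.740 to 1.05 at E-L 38. The 3 members on VIT_00s0332 (Un), VIT_00s0332g00060, VIT_00s0332g00110 and VIT_00s0332g00130, had 2.23 to 2.85 RPM in wild-type E-L 38 against 5.77 to 6.40 RPM in mutant E-L 38.

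**Figure D5:**
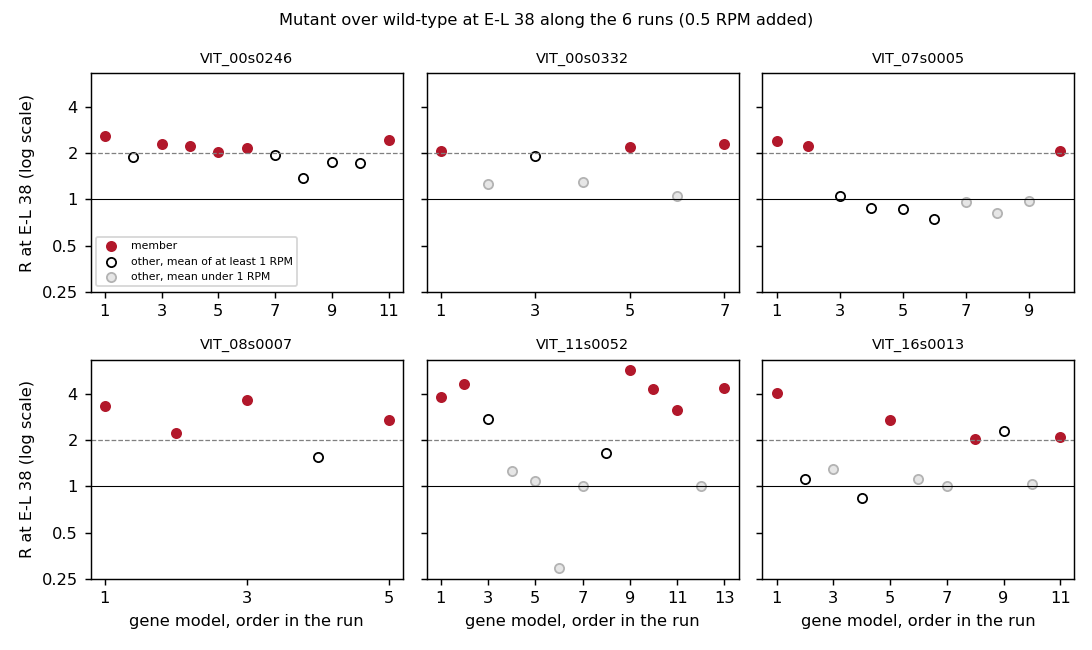
R at E-L 38, mutant over wild-type with 0.5 RPM added (vertical axes, log scale), along the gene models of the 6 runs in their order (horizontal axes); red points are members, open black points other ripe-expressed genes, grey points genes below 1 RPM, and dashed lines mark R of 2. The run on VIT_11s0052 reaches 5.70, and on VIT_00s0246 all 11 gene models lie above 1.

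Members were found on every chromosome. They made up 0.515% of the ripe-expressed genes on chromosome 5 (5 of 970) and 2.26% on chromosome 10 (12 of 530). The sequence not placed on a chromosome held 24 members among 1132 such genes (2.12%), and 9 of these 24 lay in the runs on VIT_00s0246 and VIT_00s0332.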

How the data were processed

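The 6 mRNA-Seq libraries covered 2 clones (wild-type and mutant) at 3 stages, with 1 library each, from poly(A) RNA of 3 extractions pooled per library. The counts were made by the authors: paired-end reads were aligned with BWA to the v1 annotation of the 12x PN40024 grapevine genome, reads with more than 1 position were excluded with SAMtools, and unique reads were summed per gene model. The deposited RPM values are these counts scaled to 1000000 unique reads per library, with no division by gene length, and a check showed that every one equals its scaled count. Tool versions are not given in the sources used here.

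R, changes between stages and patterns were computed from RPM with 0.5 RPM added, and a change was called at 2-fold. Intervals are 95% exact conditional binomial (Clopper-Pearson) intervals of the 2 counts and cover counting error only. PCR copies were not removed by molecular identifiers. Depth was 70331451 to 98800321 reads per library, and 0 reads allows up to 3. With 1 library per clone and stage, no p-value was computed for a difference between clones or for E-L 38. E-L 27 was compared with E-L 15 over 4 libraries with edgeR 4.0.16 in R 4.3.3 (filterByExpr, TMM, glmQLFit, glmQLFTest, terms for stage and clone, Benjamini-Hochberg over all genes tested). The clones serve as the libraries of a stage, and the fit has a term for clone. These p-values therefore set the stage change against how far that change differs between the clones. A constant difference between the clones is not part of that spread. The script was tested on simulated data. Alternatives were other scalings (TMM, DESeq size factors, upper quartile), pseudocounts, filters and thresholds, equal depth, DESeq2 1.42.0, no term for clone and all 6 libraries, and, chosen after seeing the data, library totals without the genes of R at most 0.1 at E-L 38. Other computations used Python 3.11.15, pandas 2.3.3, numpy 2.4.6 and scipy 1.17.1, with matplotlib 3.10.9 for the plots.

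The members, lists and named genes were chosen with earlier results of these data known. Genes were named as the 20 members with the largest R at E-L 38, the 10 with the most RPM in mutant E-L 38, up to 4 of each pattern by the same value, those nearest the thresholds, members in runs, and the 5 largest changes in each direction past the stage test. From these sets the text gives examples. The neighbours VIT_11s0052g01200, VIT_11s0052g01230, VIT_16s0013g00350, VIT_16s0013g00380, VIT_16s0013g00450 and VIT_07s0005g01990 to VIT_07s0005g02020 are no members and were picked with their values in view. Another 24 lists by annotation words (pathways, markers of skin and photosynthetic tissue) could not be applied, because 0 of the 29591 genes of the reference table used here (RefSeq) matched an identifier of the counts. Of the list of seed genes named by the study, 0 of 9 were members. Sequences were not used here.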

Additional observations from a re-analysis of the deposited data

Results flagged for a closer look

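Effects of opposite direction in the clones were seen in 67 members (31% of the members, against 3.72% of the 16946 ripe-expressed genes), in which E-L 38 lay below E-L 27 in the wild-type and above it in the mutant. With 1 library per clone and stage this difference was not tested, and the rule favours it, since it selects members whose ratio is higher in ripe than in young berries. The 67 were counted by direction alone, in RPM, and were not counted again with other scalings. TMM factors moved the median log2 change of the ripe-expressed genes from -0.126 to 0.169 in the wild-type. In the mutant it moved from -0.209 to 0.159. In 3 of the 67 members both changes reached 2-fold in RPM, a count that was 0 with TMM, DESeq size or upper-quartile factors. The values of these 3 in RPM follow. VIT_13s0101g00210 had 31.4 and 12.9 RPM in young and ripe wild-type berries and 22.2 and 61.2 RPM in the mutant, which is 2.39-fold lower and 2.72-fold higher. VIT_14s0066g01060 had 4.63 and 2.004 RPM against 2.79 and 6.77 RPM, which is 2.05-fold lower and 2.21-fold higher. VIT_16s0013g00330 had 4.04 and 1.74 RPM against 3.92 and 8.56 RPM, which is 2.03-fold lower and 2.05-fold higher.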

How the results depend on the processing

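All 216 members still met the rule with TMM factors, DESeq size factors or upper-quartile factors, which admitted more genes (292, 306 and 280 in all). These factors moved the median log2 R at E-L 38 of the ripe-expressed genes from -0.08 to 0.03, 0.05 and 0.01. With a pseudocount of 0.05 RPM 206 of the 216 remained among 252, and with 1 RPM 173 among 178. Equal depth gave 218 genes, 211 of them members, and no filter on the mean gave 227. Library totals without the genes of R at most 0.1 gave 215 genes, all of them members. The count moved to 93 with a mean of at least 10 RPM, to 698 with R of at least 1.5 and to 49 with R of at least 3. The scalings shift log2 R at E-L 38 of nearly all genes upwards alike, by 0.12, 0.14 and 0.10, so that none could reverse R of a member. Of the values of R of 52 single members under them, 91 lay within the counting interval and 65 outside it. That interval is of the RPM ratio without the added 0.5 RPM, which R contains. In RPM itself, R of VIT_02s0154g00300 was 8.21 and already below its interval of 12.5 to 24.7. The 65 values therefore do not separate the scaling from the addition. Of the patterns, the 3 members lower in the wild-type and higher in the mutant became 0 with TMM factors, 0 with DESeq size factors, 0 with upper-quartile factors and 0 at 3-fold, 17 at 1.5-fold and 5 with a pseudocount of 0.05 RPM. The 25 members within 2-fold in both clones became 2 at 1.5-fold and 80 at 3-fold, and the 73 within 2-fold in the wild-type and higher in the mutant became 48 at 3-fold.

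For E-L 27 against E-L 15, 59 to 73 members rose and 39 to 45 fell under DESeq2, DESeq size factors, no filter on low counts and a fit without the term for clone. The shares that rose were 27.4% to 33.8% of the members against 17.3% to 20.6% of all genes tested. The shares that fell were alike, 18.1% to 20.9% against 17.4% to 20.6%. With all 6 libraries 18 members rose and 9 fell, and 2529 genes rose and 2689 fell. The cause was not tested. The term for clone pairs the stages within each clone, and without it 62 members rose and 39 fell. No paired analysis was possible for the difference between the clones, because each clone and stage has 1 library, and for the same reason no library could be left out of it. Depth limits the members with few reads in wild-type E-L 38, such as VIT_10s0003g01040 with 17.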

Other observations

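Several genes with large R at E-L 38 were no members because the clones also differed earlier. VIT_06s0004g01250 had 24.98, 5.46 and 3.55 RPM in the wild-type and 21.5, 1.78 and 36.9 RPM in the mutant from E-L 15 to E-L 38, so that the mutant was the lower clone in young berries and the higher one in ripe berries, with R of 0.382 and 9.22. VIT_18s0089g00170 and VIT_18s0089g00180, neighbours on chromosome 18, were lower in mutant flowers, with R of 0.247 and 0.158, and higher in ripe mutant berries, with R of 9.02 and 6.40. They had 12.1 and 4.67 RPM in wild-type flowers, and both had 0.334 RPM in ripe wild-type berries. VIT_05s0049g00660 was higher in the mutant in flowers and in ripe berries, with 3.43, 4.73 and 4.15 RPM in the wild-type and 23.9, 5.16 and 34.0 RPM in the mutant. Of the 249 genes with R of at least 2 at E-L 38, 11 also had R of at least 2 at E-L 27 and 9 had R of at most 0.5 there, while 3 had R of at least 2 and 11 had R of at most 0.5 at E-L 15.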
